A study of Mus musculus with 42 samples.

Results

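Kidney RNA from mice fed the PI3K inhibitor GDC-0941 was compared with kidney RNA from control littermates, over all genes counted often enough to be tested. The comparison was defined by the compound and tissue in the sample labels and used no measured value. It holds 10 of the 42 libraries of the series, 4 from GDC-0941 kidneys and 6 from control kidneys, and 11719 of 43629 genes passed the filter on low counts. The mice were male UM-HET3, a genetically mixed stock bred by crossing inbred strains. Treated mice ate the Purina 5LG6 diet with GDC-0941 at 50 ppm, starting at 3 months of age and lasting 1 month, and controls ate this diet with no compound; tissue was taken at 4 months. The series names GDC-0941 among compounds predicted to lengthen life, and the comparison asks what it did to the kidney's transcripts. RNA was read by CEL-seq, which barcodes each sample and sequences the ends of polyadenylated transcripts next to the tail. The submitters call the libraries biological replicates.

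Phosphoinositide 3-kinases (PI3K) sit below the insulin receptor and other growth factor receptors and make a membrane lipid, PIP3, that recruits the kinases PDK1 and AKT. AKT in turn stimulates mTOR complex 1, which drives ribosome and protein synthesis, and holds the FoxO transcription factors out of the nucleus, where they would switch on genes such as Igfbp1, Pck1 and G6pc. In the kidney, insulin acting through this route restrains glucose synthesis in the proximal tubule and stimulates sodium uptake along the nephron. GDC-0941 (pictilisib) binds the catalytic p110 subunits of the class I enzymes, so its direct effect is on kinase activity, which RNA counts do not measure.

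Total counts ran from 1199109 to 4016758 in the GDC-0941 libraries, against 863605 to 2559118 in the controls. The tissue label held in all 10 libraries. The phosphate transporter of the proximal tubule, Slc34a1, was at 4546, 5912, 3234 and 6148 CPM in the GDC-0941 libraries, against 5197 to 6971 CPM (median 5757) in the controls, and the thick ascending limb protein uromodulin, Umod, was at 2622, 586, 2761 and 1056 CPM in the GDC-0941 libraries, against 909.8 to 1420.1 CPM (median 973) in the controls. The hepatocyte gene Alb reached at most 5.75 CPM in the GDC-0941 libraries, against 11.8 CPM in the controls, and none of the neutrophil or adrenal cortex markers reached the filter. Between 0.0506% and 18.8% of GDC-0941 counts, and between 0.0555% and 12.5% of control counts, lay in 13 gene models that resemble the satellite-like model Gm10800. GDC-0941 replicates 1 and 3 (18.8% and 7.82%) and control replicates 2 and 3 (12.5% and 5.80%) were above 5%.

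Of the 11719 genes, 2 were higher in GDC-0941 kidneys (0.0171%) and 14 were lower (0.119%) at an adjusted p under 0.05 by edgeR's quasi-likelihood test with Benjamini-Hochberg adjustment, 16 in all (0.137%). Several of the genes that fell code for proteins that process, release or export messenger RNA, among them Sfpq, Khdc4, Cpsf6 and Xpo1. The 2 that rose were Rcl1, which codes for a protein of ribosome assembly, and the uncharacterised 2310039H08Rik. Changes over the whole transcriptome were small, with a median log2 change of 0.01, a central range from -0.65 at the 5th percentile to 0.73 at the 95th, and a median standard error of 0.27. At an unadjusted p below 0.05, 650 genes were higher (5.55%) and 882 lower (7.53%). The number of calls rested on single libraries: none was left without GDC-0941 replicate 2, 3 or 4 or without control replicate 1, 3, 4 or 5, and 1 was left without GDC-0941 replicate 1, but there were 159 without control replicate 2 and 101 without control replicate 6. It was also 0 without the libraries at 5% or more satellite-like counts and with the total count as a covariate, and 185 by DESeq2.

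Sfpq had the smallest p of all genes and Rcl1 the next, and they moved in opposite directions. Their promoters, from 250 bases before to 50 bases after the annotated start, are shown as the regulatory sequence of the leading gene in each direction, from RefSeq on GRCm38.p6, 5′ to 3′ on the gene's strand. Capitals mark each CCAAT box, the letters CCAAT or their reverse complement ATTGG, a motif bound by the factor NF-Y. The Sfpq window lies at chr4:127021051-127021350 and the Rcl1 window at chr19:29101125-29101424, both on the plus strand.
Sfpq: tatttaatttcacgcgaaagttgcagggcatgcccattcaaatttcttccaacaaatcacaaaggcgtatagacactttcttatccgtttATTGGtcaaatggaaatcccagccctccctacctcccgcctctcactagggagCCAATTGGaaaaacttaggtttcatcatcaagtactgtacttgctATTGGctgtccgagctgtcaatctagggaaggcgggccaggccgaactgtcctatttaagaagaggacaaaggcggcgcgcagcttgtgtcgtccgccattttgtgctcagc
Rcl1: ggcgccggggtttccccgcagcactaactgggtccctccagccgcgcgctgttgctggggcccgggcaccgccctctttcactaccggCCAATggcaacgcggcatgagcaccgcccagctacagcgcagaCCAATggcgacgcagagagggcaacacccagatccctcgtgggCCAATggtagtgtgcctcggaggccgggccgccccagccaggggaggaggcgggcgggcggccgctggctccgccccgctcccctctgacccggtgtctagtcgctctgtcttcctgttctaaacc
Windows were on hand for 13 of the 16 called genes, 15 windows in all. A CCAAT box lay in 60% of these, against 37% of the windows of all genes tested. Several of the 15 windows belong to Rhobtb1, and each of those holds a CCAAT box. The FoxO core motif GTAAACA (or TGTTTAC) lay in 0% of the windows of called genes, against 2.77% of those of all genes tested. The E-box CACGTG lay in 20% and 9.89%, and the ETS motif CCGGAAG (or CTTCCGG) in 6.67% and 16.8%. With 15 windows these shares are descriptions of letters in the windows.

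Among the genes of RNA processing, Sfpq, a nuclear RNA-binding protein of splicing and paraspeckles at chr4:127021324-127037013 on the plus strand, was at 83.6, 46.5, 42.1 and 54.1 CPM in the GDC-0941 libraries, against 72.5 to 134 CPM (median 108) in the controls. Replicate 1 of GDC-0941 lay inside the control range and the other 3 lay below it. The log2 change was -0.90 ± 0.17 (SE), with an adjusted p of 0.0390. Khdc4, a KH-domain protein that takes part in splicing, was at 33.6, 41.4, 35.1 and 46.7 CPM in the GDC-0941 libraries, against 47.7 to 118 CPM (median 97.6) in the controls. Every GDC-0941 library was below every control, although control replicates 2 and 6 came close (log2 change of -1.15 ± 0.23 (SE), adjusted p = 0.0390). Cpsf6, a subunit of the cleavage factor that chooses polyadenylation sites, was at 59.97, 59.1, 46.6 and 65.7 CPM in the GDC-0941 libraries, against 58.3 to 152 CPM (median 116) in the controls. Only control replicate 2 fell among the GDC-0941 values (log2 change of -0.93 ± 0.18 (SE), adjusted p = 0.0390).

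Xpo1 codes for exportin 1, which carries proteins with a nuclear export signal and some RNAs out of the nucleus. It was at 38.2, 32.4, 28.7 and 32.4 CPM in the GDC-0941 libraries, against 41.2 to 97.8 CPM (median 61.8) in the controls, with no overlap between the groups (log2 change of -0.94 ± 0.19 (SE), adjusted p = 0.0390). Med13, a subunit of the Mediator kinase module that couples transcription factors to RNA polymerase II, was at 109, 80.2, 47.9 and 95.2 CPM in the GDC-0941 libraries, against 107 to 241 CPM (median 165) in the controls. Replicate 1 of GDC-0941 was above the lowest control and the other 3 were below all controls (log2 change of -0.99 ± 0.21 (SE), adjusted p = 0.0485). Crebzf, a leucine zipper co-regulator of transcription, was at 23.6, 27.9, 20.4 and 28.8 CPM in the GDC-0941 libraries, against 30.05 to 108 CPM (median 74.6) in the controls, with no overlap but with control replicates 2 and 6 just above the GDC-0941 libraries (log2 change of -1.39 ± 0.30 (SE), adjusted p = 0.0485).

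The genes that fell also included some of protein turnover and modification. Rhobtb1, an atypical GTPase that serves cullin 3 ubiquitin ligases as an adaptor, lies at chr10:69151434-69291791 and was at 36.3, 41.4, 25.5 and 39.5 CPM in the GDC-0941 libraries, against 74.8 to 127 CPM (median 111) in the controls. The groups were well apart, and the fall was the largest of any called gene with a symbol (log2 change of -1.53 ± 0.30 (SE), adjusted p = 0.0390). Ube3a, the E3 ubiquitin ligase that is imprinted in neurons, was at 52.7, 45.9, 30.7 and 43.3 CPM in the GDC-0941 libraries, against 56.99 to 92.8 CPM (median 78.2) in the controls, again with no overlap (log2 change of -0.79 ± 0.17 (SE), adjusted p = 0.0485). Naa15, the ribosome-bound anchor subunit of the NatA N-terminal acetyltransferase, was at 36.3, 41.95, 31.3 and 35.2 CPM in the GDC-0941 libraries, against 51.6 to 69.3 CPM (median 60.8) in the controls. All 4 GDC-0941 libraries lay below all 6 controls (log2 change of -0.74 ± 0.15 (SE), adjusted p = 0.0390).

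Of the remaining genes that fell, Cep350, a centrosome protein that anchors microtubules, was at 39.1, 27.9, 26.8 and 35.95 CPM in the GDC-0941 libraries, against 42.4 to 60.4 CPM (median 53.2) in the controls, and the zinc finger gene Zfp24 was at 44.5, 35.2, 31.9 and 31.9 CPM in the GDC-0941 libraries, against 47.7 to 70.8 CPM (median 61.3) in the controls. Neither overlapped between the groups, with log2 changes of -0.69 ± 0.15 and -0.77 ± 0.16 (SE) and an adjusted p of 0.0485 for each. The zinc finger gene Zfp697 averaged 45.2 ± 10.8 CPM in the GDC-0941 libraries and 104 ± 33.5 CPM in the controls (SD; log2 change of -1.21 ± 0.26, adjusted p = 0.0485) without overlap, and Fam135a averaged 30.9 ± 4.92 CPM in the GDC-0941 libraries and 59.1 ± 16.9 CPM in the controls (SD; log2 change of -0.91 ± 0.19, adjusted p = 0.0485) with one control inside the GDC-0941 range. ENSMUSG00000089788, which has no symbol in the annotation used, was at 9.09, 14.9, 11.5 and 19.3 CPM in the GDC-0941 libraries, against 12.96 to 89.5 CPM (median 53.5) in the controls, and the groups overlapped (log2 change of -1.88 ± 0.39 (SE), adjusted p = 0.0485). The strand setting of the counting was not given, so reads of Ube3a cannot be told from those of its antisense partner Snhg14, nor those of Zfp697 from Hsd3b genes inside its annotated span, Rhobtb1 from A930033H14Rik or Med13 from Brip1os.

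Rcl1 (RNA terminal phosphate cyclase like 1) is needed for an early cleavage of the ribosomal RNA precursor in yeast. It lies at chr19:29101375-29143929 on the plus strand and was at 15.4, 12.95, 13.4 and 11.7 CPM in the GDC-0941 libraries, against 2.44 to 5.79 CPM (median 5.07) in the controls. Each GDC-0941 kidney had at least 11.7 CPM and no control had over 5.79 CPM. The control values of Rcl1 rest on few reads each at these levels. The log2 change was 1.46 ± 0.28 (SE), adjusted p = 0.0390, and the adjusted p over the alternatives that gave one ran from 0.0106 to 0.342. The microRNA gene Mir101b lies within Rcl1 on the same strand. 2310039H08Rik, at chr17:46772635-46773396, was at 129, 118, 145 and 109.5 CPM in the GDC-0941 libraries, against 65.9 to 97.3 CPM (median 77.3) in the controls, with no overlap between the groups (log2 change of 0.64 ± 0.14 (SE), adjusted p = 0.0485). The gene model Gm26904 overlaps it on the same strand.

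**Figure D1:**
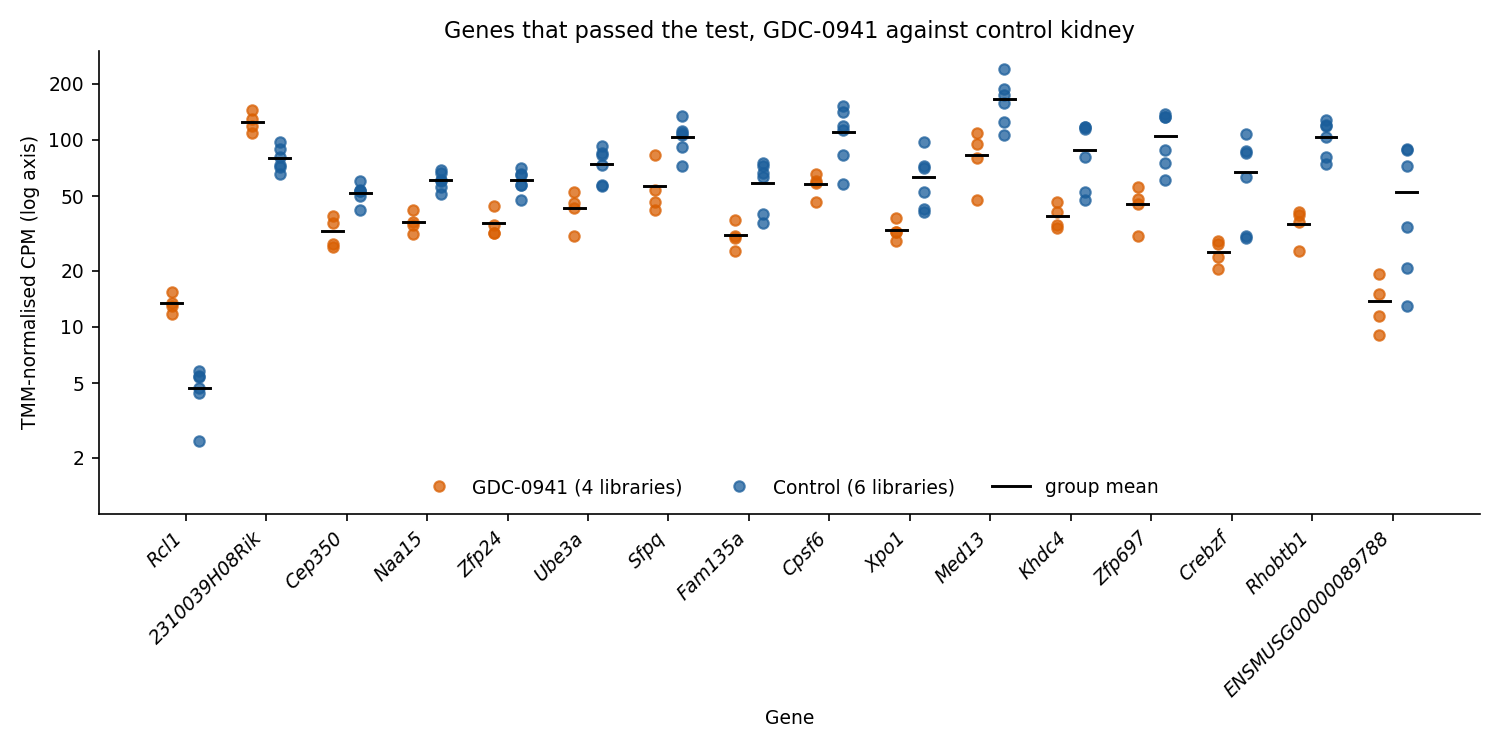
TMM-normalised CPM (log axis) of the 16 genes that passed the test, with each GDC-0941 library in orange on the left and each control library in blue on the right, and a line at each group mean. Rcl1 sits at 11.7 to 15.4 CPM in GDC-0941 kidneys and 2.44 to 5.79 CPM in controls, and in many of the genes that fell 2 controls lie close to the GDC-0941 values.

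The controls themselves were split over the genes that fell. Control replicate 2 was among the 2 lowest controls in 13 of the 14 genes and control replicate 6 in 11. Control replicate 5 was among the 3 highest in all 14, replicate 3 in 12 and replicate 4 in 11. Of the called genes, the 2 that rose and 9 of the 14 that fell had no overlap between the groups. Over all genes tested, all 4 GDC-0941 libraries lay above all 6 controls in 156 genes (1.33%) and below them in 143 (1.22%).

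Splicing regulators leaned lower. Of 54 tested genes for SR proteins and other splicing regulators, 2 fell at the adjusted threshold (Sfpq and Khdc4), and 31 were lower and 0 higher at an unadjusted p below 0.05, against 7.53% lower and 5.55% higher over all genes. Their median log2 change was -0.49, against 0.01 for all genes. The RNA helicase Ddx17 missed the threshold at 68.2, 68.4, 50.5 and 102 CPM in the GDC-0941 libraries, against 71.3 to 263 CPM (median 162) in the controls (log2 change of -1.21 ± 0.27 (SE), adjusted p = 0.0503), and Safb, a scaffold attachment factor that binds DNA and RNA, did so at 7.27, 5.91, 9.58 and 10.7 CPM in the GDC-0941 libraries, against 15.1 to 30.8 CPM (median 22.4) in the controls (log2 change of -1.37 ± 0.30 (SE), adjusted p = 0.0503). Safb is not a member of the list and is named for its small p. All GDC-0941 values of Safb were below all control values, whereas Ddx17 overlapped, and Ddx17 overlaps Kdelr3 on the opposite strand. The summed level of the list was 4704, 4545, 3844 and 5084 CPM in the GDC-0941 libraries, against 4395 to 8096 CPM (median 7089) in the controls. Controls 2 and 6 lay at the level of the GDC-0941 kidneys and controls 1, 3, 4 and 5 above all of them. Without any single library, between 24 and 34 of the list were lower at the unadjusted threshold.

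Nuclear noncoding RNAs ran the same way but none passed the adjusted threshold. Of 19 tested, 7 were lower (36.8%) and 0 higher at an unadjusted p below 0.05, against 7.53% and 5.55% of all genes. Their median log2 change was -0.66. Malat1, an abundant RNA of nuclear speckles, was at 476, 290.0, 246 and 423 CPM in the GDC-0941 libraries, against 282 to 2101 CPM (median 1304) in the controls (log2 change of -1.67 ± 0.41 (SE), adjusted p = 0.0924). Neat1, the RNA scaffold of paraspeckles that Sfpq binds, was at 167, 316, 125 and 305 CPM in the GDC-0941 libraries, against 204 to 1399 CPM (median 889) in the controls (log2 change of -1.86 ± 0.48 (SE), adjusted p = 0.0977). In both, controls 2 and 6 lay among the GDC-0941 values. The list summed to 964, 889.8, 723 and 1019 CPM in the GDC-0941 libraries, against 836 to 4096 CPM (median 2780.4) in the controls. Leaving out control 3, 4 or 5 or GDC-0941 replicate 2 brought the 7 members to 3, 4, 4 and 4, and leaving out control 6 brought them to 11.

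Other lists of nuclear function leaned lower too. Of 21 tested genes of 3′ end cleavage and polyadenylation 1 fell (Cpsf6), and 3 were lower (14.3%) and 0 higher at the unadjusted threshold, with Cpsf7 at -0.74 ± 0.20 and Rbbp6 at -0.55 ± 0.19 (log2 change ± SE). Of 45 genes of Mediator and transcription elongation 1 fell (Med13), and 9 were lower (20%) and 2 higher (4.44%) at the unadjusted threshold, including the cyclin Ccnt2 at -1.04 ± 0.29. Of 53 nuclear transport genes 1 fell (Xpo1), and 9 were lower (16.98%) and 1 higher (1.89%). Of 54 E3 ubiquitin ligases 1 fell (Ube3a), and 12 were lower (22.2%) and 0 higher. Over all genes 7.53% were lower and 5.55% higher at that threshold. Wsb1, an ubiquitin ligase adaptor induced by hypoxia, was at 27.3, 32.4, 49.8 and 36.7 CPM in the GDC-0941 libraries, against 38.3 to 171 CPM (median 99.2) in the controls (log2 change of -1.46 ± 0.33 (SE), adjusted p = 0.0654). The list of CLK, DYRK and SRPK kinases, which phosphorylate splicing factors, also holds the cyclin-dependent kinase Cdk13. Of its 13 tested genes 5 were lower (38.5%) and 0 higher at the unadjusted threshold. Dyrk1a and Cdk13 had no overlap between the groups (log2 changes of -0.48 ± 0.15 and -0.71 ± 0.18). Over all genes, 1.22% had all 4 GDC-0941 libraries below all 6 controls.

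Lists of short, abundant messages leaned the other way, with no member past the adjusted threshold. Of 63 cytosolic ribosomal protein genes 19 were higher (30.2%) and 0 lower at an unadjusted p below 0.05 (median log2 change 0.30). Of 72 nuclear genes of oxidative phosphorylation 27 were higher (37.5%) and 0 lower (median 0.28). Over all genes 5.55% were higher and 7.53% lower. Ndufb9, a subunit of complex I, was at 329.9, 369, 458 and 329.8 CPM in the GDC-0941 libraries, against 209 to 317 CPM (median 244) in the controls, with no overlap (log2 change of 0.54 ± 0.16 (SE), adjusted p = 0.151). Rps14, a protein of the small ribosomal subunit, was at 329.9, 495, 602 and 399 CPM in the GDC-0941 libraries, against 216 to 402 CPM (median 259) in the controls, with control replicates 2 and 6 among the GDC-0941 values (log2 change of 0.66 ± 0.20 (SE), adjusted p = 0.151). Ribosomal proteins have many processed copies in the genome, so their reads may have been split.

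The ribosomal protein genes summed to 7479, 10284, 11662 and 8041 CPM in the GDC-0941 libraries, against 6108 to 9109.5 CPM (median 7153) in the controls, and the oxidative phosphorylation genes to 34664, 43988, 46111 and 39536 CPM in the GDC-0941 libraries, against 29229.6 to 40587 CPM (median 32466) in the controls. In each, GDC-0941 replicates 1 and 4 lay within the controls and replicates 2 and 3 lay above all of them. Of the ribosomal protein genes, 7 were higher at the unadjusted threshold without GDC-0941 replicate 3, 12 without GDC-0941 replicate 2, 11 and 12 without control 4 or 5, and 29 without control 6. Of the oxidative phosphorylation genes, 6 were higher without GDC-0941 replicate 3, 18 without GDC-0941 replicate 2, 16, 17 and 14 without control 3, 4 or 5, and 44 without control 6. With the total count as a covariate the 2 lists had 9 and 11 such members.

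**Figure D2:**
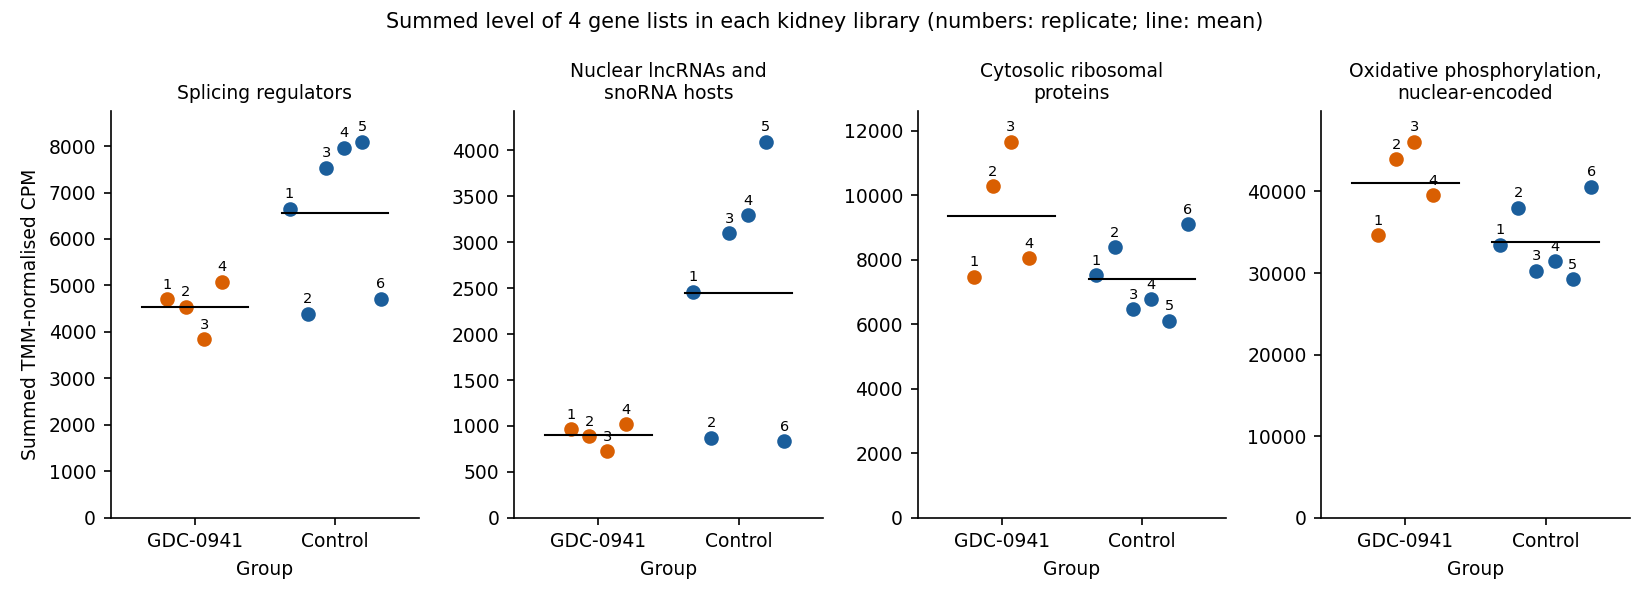
Summed TMM-normalised CPM of 4 gene lists in each kidney library, GDC-0941 in orange on the left and control in blue on the right, with the replicate number at each point and a line at the group mean. Controls 2 and 6 sit beside the GDC-0941 libraries in the 2 left panels, where controls 1, 3, 4 and 5 are higher, and GDC-0941 replicates 1 and 4 sit within the control range in the 2 right panels.

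The direction of change differed by transcript length over all genes tested. Genes were sorted into 4 length bins of near-equal size by their longest annotated transcript in GENCODE M21. Bin 1 (67 to 2221 bases) had a median log2 change of 0.19, bin 2 had 0.05, bin 3 had -0.06 and bin 4 (4995 bases or more) had -0.18. At an unadjusted p below 0.05, 12.6% of bin 1 were higher and 2.05% lower, and 0.892% of bin 4 were higher and 15.3% lower. The median longest transcript was 5732 bases for 13 of the 14 genes that fell, against 3464 bases for all genes tested. Each of the 14 that had a length was at least 3376 bases long, while Rcl1 has 1884 and 2310039H08Rik 762. The median was 1120 bases for the ribosomal protein genes and 1231.5 for oxidative phosphorylation, lengths of bin 1. It was 4168.5 for the splicing regulators, 3896 for the nuclear noncoding RNAs and 3755 for Mediator and elongation, lengths of bin 3. These lists had median log2 changes of -0.49, -0.66 and -0.21, against -0.06 for that bin. The 3′ end (4518 bases) and nuclear transport (4766 bases) lists also had lengths of bin 3, with median log2 changes of -0.25 and -0.12. The E3 ubiquitin ligases (5087 bases) and the list of CLK, DYRK and SRPK kinases (5912 bases) had lengths of bin 4. Their median log2 changes were -0.19 and -0.30, against -0.18 for that bin.

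By library, the median log2 difference from the mean of the 10 libraries in bin 4 was 0.10, -0.27, -0.11 and -0.10 in GDC-0941 replicates 1 to 4, against -0.09 to 0.21 in the controls. In bin 1 it was -0.06, 0.23, 0.21 and 0.09 in the GDC-0941 libraries, against -0.19 to 0.10 in the controls. GDC-0941 replicate 1 therefore went against the other 3, and control replicate 6 lay with them in both bins. Against the 5 other compounds the medians of bins 1 to 4 were 0.06, 0.00, -0.02 and -0.05. The part of transcript length in the changes of single genes was not tested.

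**Figure D3:**
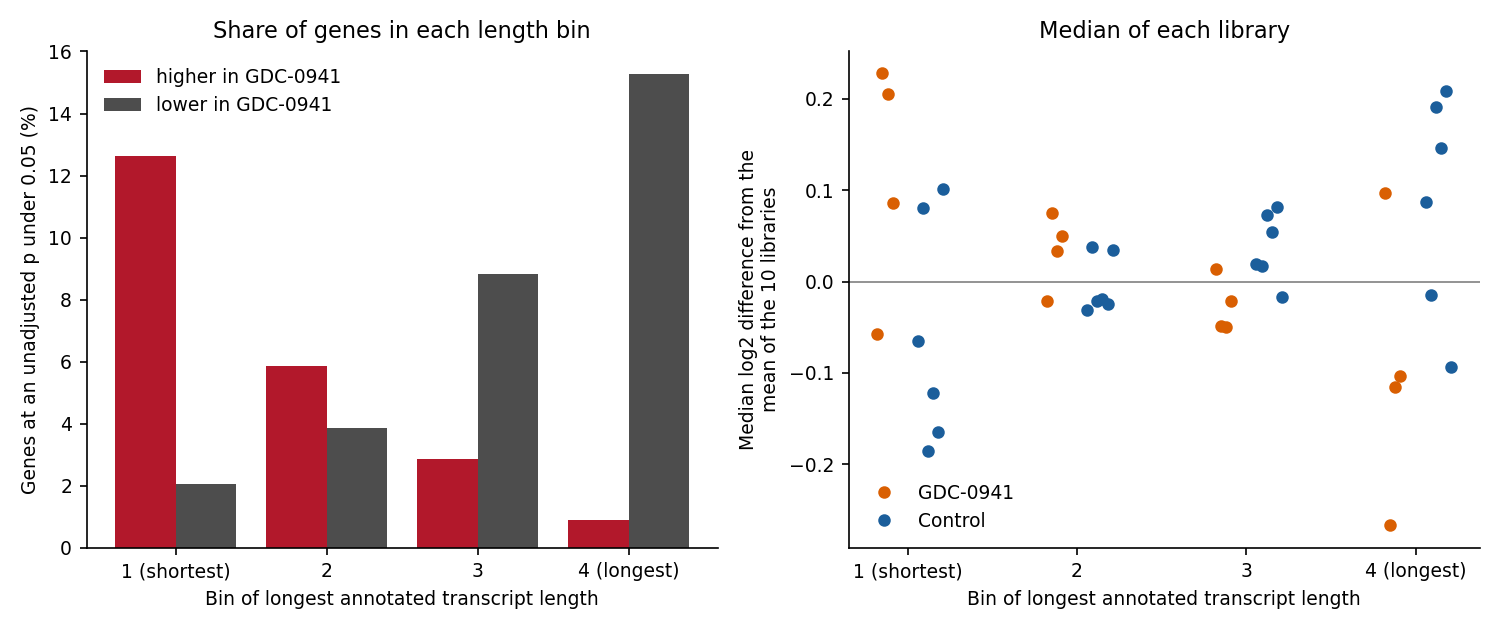
Left, percent of genes at an unadjusted p below 0.05 that were higher (red) or lower (grey) in GDC-0941 kidneys, by bin of longest annotated transcript length; right, each library's median log2 difference from the mean of the 10 libraries in that bin, GDC-0941 in orange and control in blue. The share higher is 12.6% in the bin of shortest transcripts and 0.892% in the bin of longest, and the share lower is 2.05% and 15.3%.

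In the PI3K pathway itself no member of any list passed the adjusted threshold. Of 11 tested subunits and regulators, 1 was higher and 1 lower at an unadjusted p below 0.05 (9.09% each, against 5.55% and 7.53% of all genes). The median log2 change was 0.01. Pik3ca, the catalytic p110α subunit, was at 174, 201, 127 and 200.2 CPM in the GDC-0941 libraries, against 183 to 239 CPM (median 224) in the controls (log2 change -0.28 ± 0.15), and Pik3cb, the p110β subunit, differed by -0.01 ± 0.25. Among regulatory subunits, Pik3r1 (p85α) differed by -0.05 ± 0.27 and Pik3r2 (p85β) was at 22.7, 28.7, 18.5 and 26.2 CPM in the GDC-0941 libraries, against 9.77 to 24.8 CPM (median 16.6) in the controls (log2 change of 0.46 ± 0.21 (SE), adjusted p = 0.351). Pik3r4, the scaffold of the class III complex with Vps34 that is not a p110 partner, was at 15.4, 8.45, 15.97 and 17.4 CPM in the GDC-0941 libraries, against 17.4 to 27.7 CPM (median 21.9) in the controls, all below the controls, though the closest pair of libraries both round to 17.4 CPM (log2 change of -0.63 ± 0.22 (SE), adjusted p = 0.209). The leukocyte subunits Pik3cd and Pik3cg were counted too rarely to be tested.

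Upstream, 21 of 25 tested receptors and adaptors had a negative log2 change (median -0.24), with 2 lower (8%, against 7.53% of all genes) and 0 higher at the unadjusted threshold. Their median longest transcript was 5924 bases, and bin 4, which holds that length, had a median of -0.18. The 2 were Met, the hepatocyte growth factor receptor, at 216, 253, 124 and 237 CPM in the GDC-0941 libraries, against 215 to 359.5 CPM (median 304) in the controls (log2 change of -0.54 ± 0.21 (SE), adjusted p = 0.257), and Frs2, an adaptor of fibroblast growth factor receptors (log2 change of -0.59 ± 0.26 (SE), adjusted p = 0.327). The insulin receptor Insr differed by -0.40 ± 0.25, Igf1r by -0.21 ± 0.28 and the adaptor Irs2 by -0.67 ± 0.46, each less than 2 standard errors from 0. Of 15 phosphatases that remove phosphates from phosphoinositides, 3 were lower (20%, against 7.53% of all genes) and 0 higher at the unadjusted threshold. The 3 were Ocrl, Synj1 and Sacm1l, at -0.51 ± 0.22, -0.46 ± 0.20 and -0.28 ± 0.14.

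Downstream, of 27 genes for AKT, PDK1, SGK and their substrates 1 was higher (3.70%) and 2 lower (7.41%) at the unadjusted threshold. These shares were near the 5.55% and 7.53% of all genes, and the median log2 change was -0.05. Akt1 and Akt2 differed by 0.09 ± 0.14 and 0.09 ± 0.29. The one higher was the forkhead factor Foxo4, an AKT substrate, at 25.4, 31.5, 24.9 and 30.95 CPM in the GDC-0941 libraries, against 16.3 to 23.6 CPM (median 19.3) in the controls, with no overlap (log2 change of 0.52 ± 0.21 (SE), adjusted p = 0.278). The sodium transport kinase Sgk1 was at 31.8, 26.5, 31.3 and 30.7 CPM in the GDC-0941 libraries, against 26.9 to 70.1 CPM (median 51.97) in the controls (log2 change of -0.76 ± 0.36 (SE), adjusted p = 0.367), with only control replicate 3 as low as the GDC-0941 kidneys. Foxo1 and Foxo3 differed by -0.29 ± 0.16 and -0.43 ± 0.21.

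Of 43 genes of the mTOR complexes and their regulators 4 were higher and 4 lower at the unadjusted threshold. That is 9.30% each way, near the 5.55% higher and 7.53% lower of all genes. Those higher were the lysosomal Ragulator subunits Lamtor1 and Lamtor2, the GATOR1 subunit Nprl2 and the mTOR complex 2 subunit Mapkap1, at log2 changes from 0.36 ± 0.15 to 0.43 ± 0.20. Those lower were Rictor, the defining subunit of mTOR complex 2, the autophagy kinase Ulk1, the GATOR1 subunit Nprl3 and the folliculin gene Flcn. Rictor was at 25.4, 12.4, 11.5 and 9.76 CPM in the GDC-0941 libraries, against 14.7 to 34.6 CPM (median 26.96) in the controls (log2 change of -0.88 ± 0.28 (SE), adjusted p = 0.185), with replicate 1 of GDC-0941 inside the control range. Mtor itself differed by -0.20 ± 0.19.

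Of 38 tested targets that FoxO factors or insulin regulate, 2 were higher (5.26%) and 3 lower (7.89%) at the unadjusted threshold, near the 5.55% and 7.53% of all genes, with a median log2 change of -0.05. The gene of smallest p among them was Igfbp1, which codes for a secreted binding protein of insulin-like growth factors and is a classic gene that insulin represses. It was at 5.45, 5.91, 9.58 and 5.48 CPM in the GDC-0941 libraries, against 0 to 3.26 CPM (median 1.13) in the controls, so the lowest GDC-0941 kidney was above the highest control. At these levels the control values rest on few reads each. The log2 change of 2.30 ± 0.55 (SE) did not pass, with an adjusted p of 0.0851, and the adjusted p over the alternatives that gave one ran from 0.0408 to 0.372. Against the 5 other compounds Igfbp1 differed by 0.62 ± 0.39. Pck1, the rate-limiting enzyme of glucose synthesis, was at 1419, 1429.5, 1539.7 and 1859 CPM in the GDC-0941 libraries, against 1189 to 2004 CPM (median 1294) in the controls (log2 change 0.14 ± 0.29), and G6pc, which releases free glucose, was at 153, 284, 143 and 226 CPM in the GDC-0941 libraries, against 244 to 336 CPM (median 255) in the controls (log2 change -0.45 ± 0.29). Cdkn1b (p27), a cell cycle inhibitor that FoxO factors induce, was at -0.45 ± 0.17, on the lower side.

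**Figure D4:**
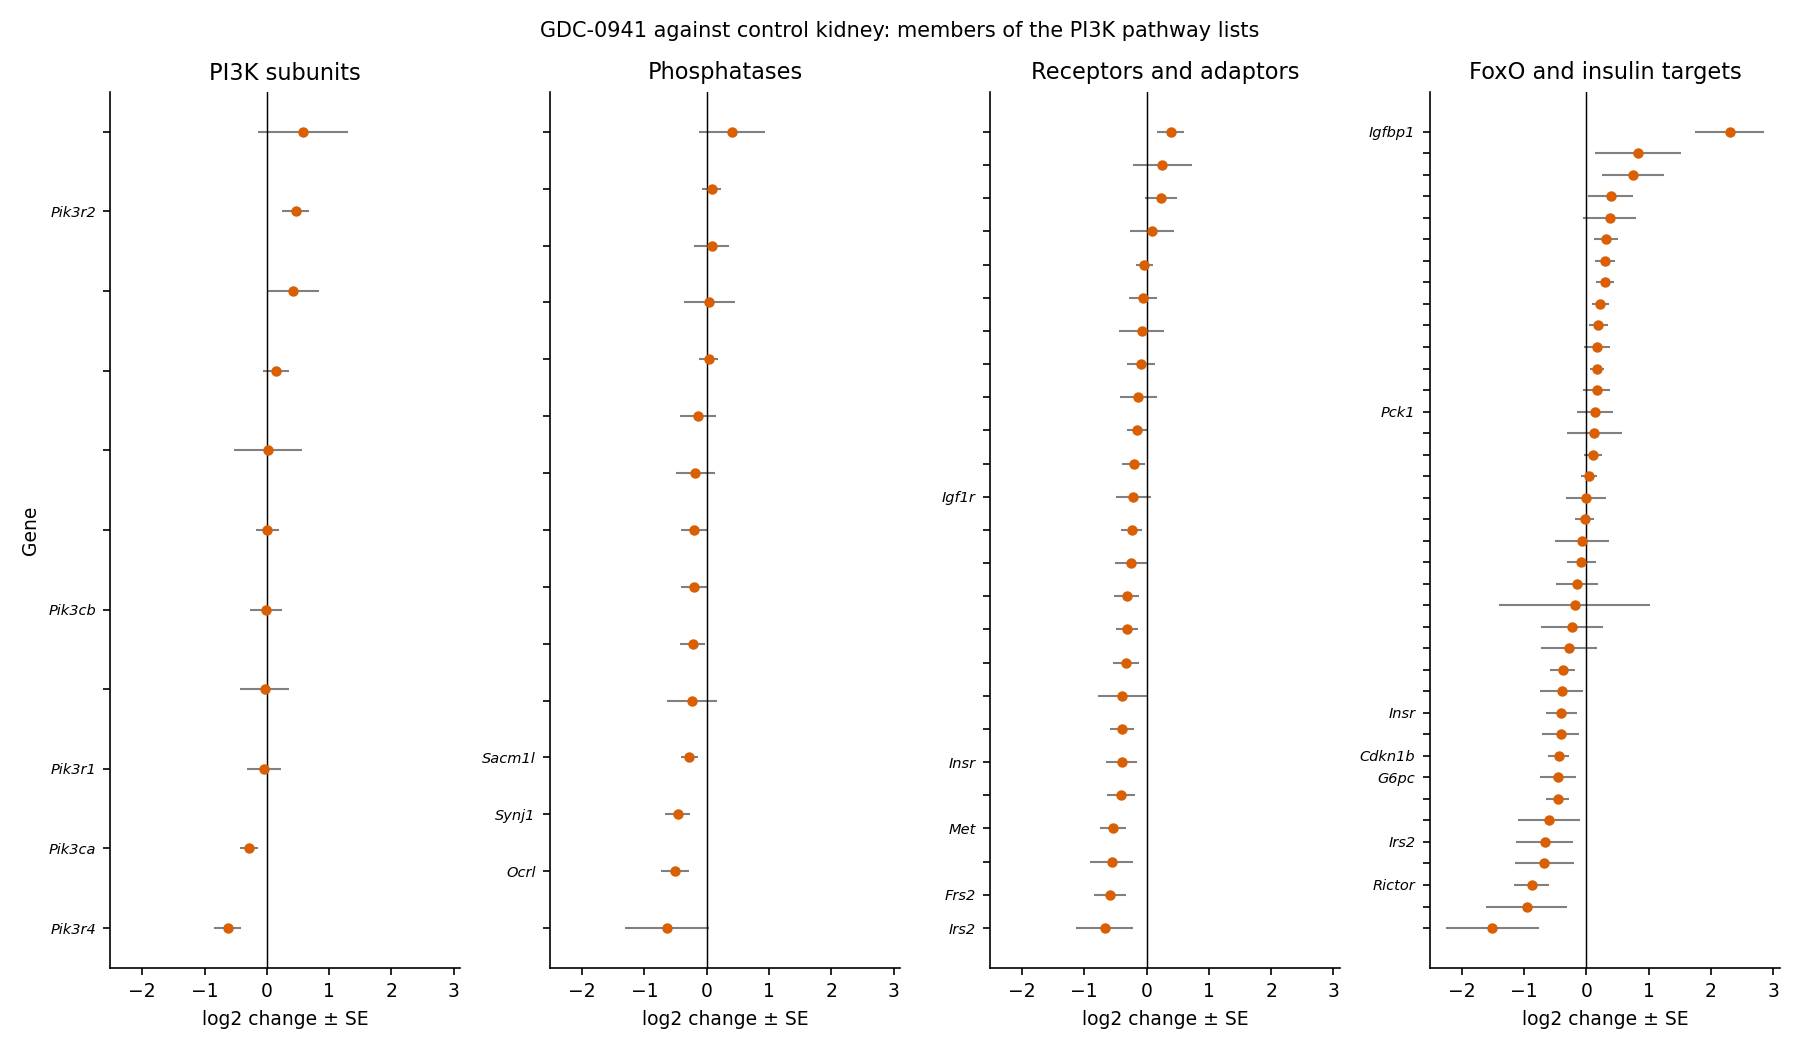
Log2 change with its standard error, GDC-0941 against control kidney, for each tested member of 4 lists of the PI3K pathway, ordered by size within each list, with the gene symbol beside the members that the text names. Most members lie within 1 unit of 0, and Igfbp1, with few reads in the controls, stands alone at 2.30 ± 0.55.

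The metabolic lists held no gene past the adjusted threshold. At the unadjusted threshold 5.55% of all genes were higher and 7.53% lower. Of 26 genes of renal glucose synthesis and transport 3 were higher (11.5%) and 0 lower at that threshold. The fructose transporter Slc2a5 led them at 21.8, 38.01, 31.9 and 55.003 CPM in the GDC-0941 libraries, against 13.96 to 24.2 CPM (median 17.7) in the controls (log2 change of 1.07 ± 0.30 (SE), adjusted p = 0.120). Glycolysis had 2 of 18 tested genes higher (11.1%) and 0 lower. Of 29 genes of PPARα and fatty acid oxidation 5 were higher (17.2%) and 0 lower, with a median log2 change of 0.24. Cyp4a10, a fatty acid hydroxylase, was at 362, 107, 381 and 106 CPM in the GDC-0941 libraries, against 58.3 to 144 CPM (median 99.9) in the controls, high in GDC-0941 replicates 1 and 3 and within the controls in 2 and 4 (log2 change of 1.23 ± 0.39 (SE), adjusted p = 0.178). Acadm, the medium-chain acyl-CoA dehydrogenase, had the same split at 606, 258, 617 and 309 CPM in the GDC-0941 libraries, against 253 to 343 CPM (median 270.3) in the controls (log2 change of 0.64 ± 0.29 (SE), adjusted p = 0.347). The PPARα and fatty acid oxidation list as a whole summed to 5140, 5136, 5939 and 5136 CPM in the GDC-0941 libraries. The controls had 3779 to 4839 CPM (median 4600), so every GDC-0941 sum was above every control. The difference in sums was not tested. None of 23 sterol synthesis genes, 22 fatty acid synthesis genes or 16 kidney injury genes was past the unadjusted threshold. Of 68 ribosome biogenesis genes, 1 rose (Rcl1), and 5 were higher (7.35%) and 2 lower (2.94%) at the unadjusted threshold.

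No gene of the circadian clock passed the adjusted threshold. Of 19 tested, 4 were lower (21.1%) and 2 higher (10.5%) at the unadjusted threshold, against 7.53% and 5.55% of all genes, with a median log2 change of -0.19. Arntl (BMAL1), the transcription factor of the clock's positive limb, was at 4.54, 5.91, 8.94 and 4.76 CPM in the GDC-0941 libraries, against 9.88 to 39.9 CPM (median 21.1) in the controls, with no overlap (log2 change of -1.95 ± 0.50 (SE), adjusted p = 0.0965). Nfil3, a repressor whose transcript cycles with the clock, was at 5.45, 6.48, 0.639 and 4.29 CPM in the GDC-0941 libraries, against 10.9 to 29.5 CPM (median 23.1) in the controls, again without overlap (log2 change of -2.23 ± 0.53 (SE), adjusted p = 0.0851). Npas2, an Arntl partner, was at 3.63, 2.82, 5.75 and 2.62 CPM in the GDC-0941 libraries, against 5.43 to 17.9 CPM (median 11.01) in the controls and overlapped (log2 change of -1.63 ± 0.61 (SE), adjusted p = 0.244). Clock, another partner, was lower as well at the unadjusted threshold (log2 change -0.57 ± 0.25), while the repressors Cry2 (1.35 ± 0.53) and Bhlhe41 (1.33 ± 0.60) were higher; Clock, Cry2 and Bhlhe41 are named because of these values. The time of day of tissue collection is not given in the labels used here, and its part in these differences was not tested. Against the 5 other compounds Arntl differed by -1.14 ± 0.44 and Nfil3 by -1.33 ± 0.48.

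Among other genes that missed the adjusted threshold, the mitochondrial ribosomal RNA mt-Rnr1 was at 569, 633, 1151 and 332 CPM in the GDC-0941 libraries, against 634 to 4803 CPM (median 1962) in the controls (log2 change of -1.66 ± 0.42 (SE), adjusted p = 0.0935), while 15 transcripts of mitochondrial DNA, its messenger and ribosomal RNAs, summed to 76356, 153540.0, 101813 and 77410.0 CPM in the GDC-0941 libraries, against 74589.6 to 148856 CPM (median 125904) in the controls. Genes higher in every GDC-0941 kidney than in every control included Nubpl, an assembly factor of complex I (log2 change of 0.76 ± 0.18 (SE), adjusted p = 0.0813), Glrx5, a glutaredoxin of iron-sulphur cluster assembly (log2 change of 0.60 ± 0.15 (SE), adjusted p = 0.0924), and Fdx1, the mitochondrial ferredoxin (log2 change of 0.53 ± 0.14 (SE), adjusted p = 0.111). Glrx5 was at 353, 410.0, 487 and 395 CPM in the GDC-0941 libraries, against 212 to 351 CPM (median 263) in the controls. Of 17 androgen-responsive genes of male kidney 2 were higher (11.8%) and 3 lower (17.6%) at the unadjusted threshold, against 5.55% and 7.53% of all genes.

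Nephron markers differed widely among the GDC-0941 kidneys. Replicates 1 and 3 stood apart from 2 and 4 on the first principal component, which held 28.5% of the variance over the 10 libraries, with scores of 47.4, -33.5, 53.7 and -27.4, against -32.0 to 20.4 in the controls. Umod, given above, was at 2622 and 2761 CPM in replicates 1 and 3. Aqp4, the water channel of principal and inner medullary cells, was at 129, 6.48, 122 and 5.48 CPM in the GDC-0941 libraries, against 12.7 to 26.9 CPM (median 19.4) in the controls, so replicates 1 and 3 were above and 2 and 4 below every control. Napsa, an aspartic protease of the proximal tubule, was at 1373, 572, 1652 and 656 CPM in the GDC-0941 libraries, against 437 to 581 CPM (median 543) in the controls, and Wfdc15b, a thick ascending limb gene, was at 502, 144, 701 and 225 CPM in the GDC-0941 libraries, against 159 to 257 CPM (median 191) in the controls.

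The marker lists gave the same picture. The 13 thick ascending limb genes summed to 4803, 1694, 5074 and 2461 CPM in the GDC-0941 libraries, against 2168 to 2924 CPM (median 2303) in the controls, and the 14 genes of thin limb and inner medulla to 511, 145, 545 and 209 CPM in the GDC-0941 libraries, against 210.1 to 242 CPM (median 222) in the controls. Proximal S1 and S2 genes summed to 14042, 20149.8, 14079.8 and 20228 CPM in the GDC-0941 libraries, against 16206 to 21529 CPM (median 18286) in the controls, lowest in replicates 1 and 3. Proximal S3 genes, a list that holds Napsa, went the other way, highest in replicates 1 and 3. They summed to 7837, 5079, 6852 and 5772 CPM in the GDC-0941 libraries, against 4172 to 6950 CPM (median 6002) in the controls. In bulk tissue a smaller number of cells of one type and less RNA per cell cannot be told apart. Replicates 1 and 3 are also the GDC-0941 libraries with 18.8% and 7.82% satellite-like counts; the part of that share and of the tissue piece in these differences was not tested.

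Against controls, 3 of 12 tested thick ascending limb genes were higher (25%, against 5.55% of all genes) and 0 lower at the unadjusted threshold, and 3 of 11 distal convoluted tubule genes were lower (27.3%, against 7.53%) and 0 higher. The distal convoluted tubule list as a whole summed to 3474, 4282, 4603 and 4214 CPM in the GDC-0941 libraries, against 3828 to 4813 CPM (median 3919) in the controls, with means of 4143 CPM in the GDC-0941 libraries and 4087 CPM in the controls. The sodium-chloride cotransporter Slc12a3, which defines the distal convoluted tubule, was at 54.5, 59.4, 52.4 and 99.3 CPM in the GDC-0941 libraries, against 86.02 to 149 CPM (median 111) in the controls (log2 change of -0.76 ± 0.33 (SE), adjusted p = 0.324), and the magnesium channel kinase Trpm7 was at 138, 137, 116 and 147 CPM in the GDC-0941 libraries, against 118 to 249 CPM (median 205) in the controls (log2 change of -0.51 ± 0.18 (SE), adjusted p = 0.209). The other gene lower was Wnk1, which is also on the AKT list (log2 change of -0.54 ± 0.25). Trpm7 (7107 bases) and Wnk1 (11330 bases) have lengths of bin 4, where 15.3% of genes were lower. Another distal convoluted tubule marker, Pvalb, was at 60.9, 174, 42.1 and 131 CPM in the GDC-0941 libraries, against 57.8 to 233 CPM in the controls. Adipocyte markers summed to 164, 146, 190.3 and 151 CPM in the GDC-0941 libraries, against 137 to 294 CPM (median 179) in the controls. Of 9 tested, 4 had a positive and 5 a negative log2 change. Adipoq was at 2.73, 2.25, 1.92 and 1.67 CPM in the GDC-0941 libraries, against 2.95 to 10.6 CPM (median 5.54) in the controls. Fabp4 was at 76.3, 84.5, 115.6 and 79.3 CPM in the GDC-0941 libraries, against 44.6 to 95.5 CPM in the controls. Macrophage markers summed to 508, 786, 632 and 551 CPM in the GDC-0941 libraries, against 257 to 1004 CPM (median 426) in the controls, with control replicate 2 at the top. No gene of these marker lists passed the adjusted threshold.

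The 16 called genes were also set beside their values under the other compounds. Each compound was compared with the same 6 controls, so the values share those libraries, and the doses differ (AS-703026, a MEK inhibitor, at 30 ppm, ascorbyl-palmitate, a vitamin C ester, at 6.3 ppm, the mTOR kinase inhibitors AZD8055 at 20 ppm and KU0063794 at 10 ppm, and enzastaurin, a protein kinase C inhibitor, at 75 ppm, with 4 kidneys each). Khdc4 had log2 changes against control of -1.15 ± 0.23 under GDC-0941, -0.94 ± 0.23 under AS-703026, -1.15 ± 0.22 under ascorbyl-palmitate, -1.20 ± 0.23 under AZD8055, -0.99 ± 0.22 under enzastaurin and -1.25 ± 0.23 under KU0063794. Rcl1 had 1.46 ± 0.28 under GDC-0941, 0.31 ± 0.31, 0.95 ± 0.28, 0.81 ± 0.29, 0.96 ± 0.28 and 0.66 ± 0.29 under the others in that order. Rhobtb1 had -1.53 ± 0.30 under GDC-0941, then -0.96 ± 0.30, -1.15 ± 0.29, -0.89 ± 0.29, -0.33 ± 0.28 and -0.93 ± 0.29.

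**Figure D5:**
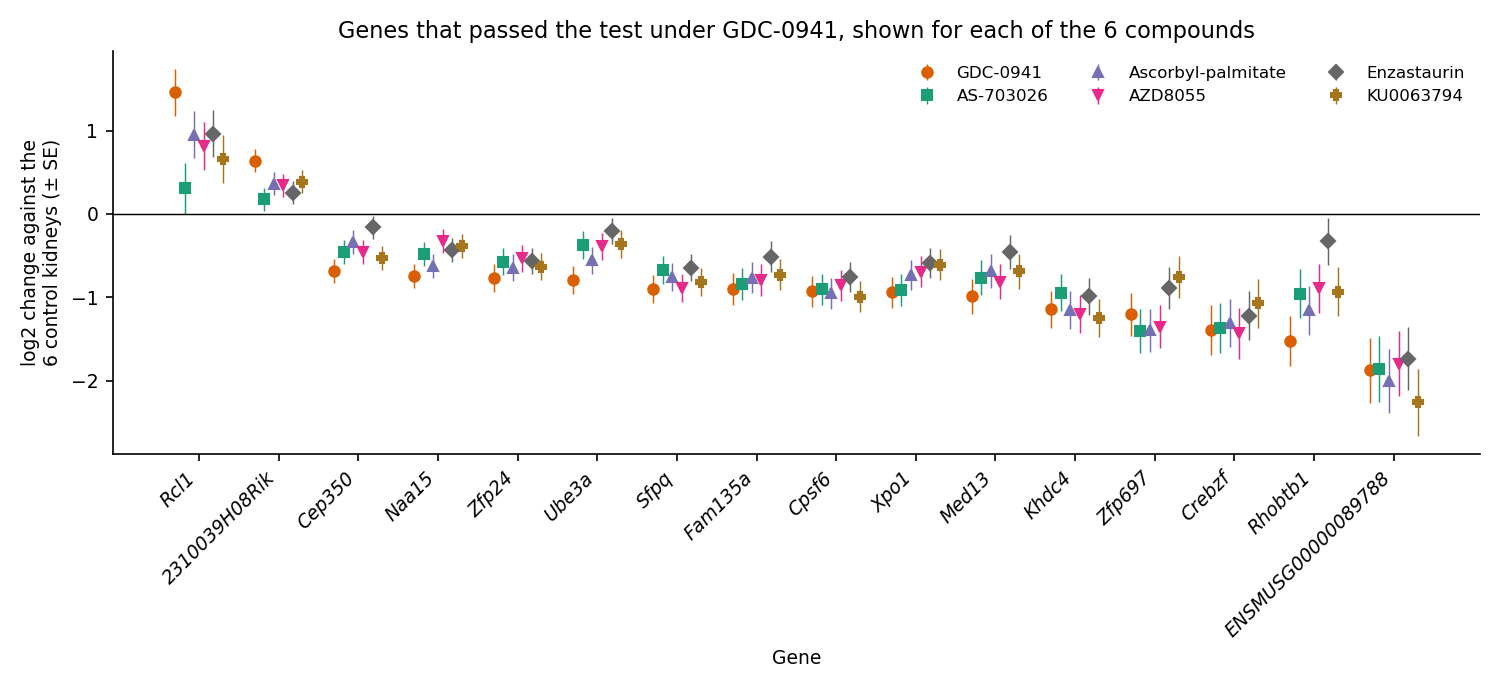
Log2 change against the 6 control kidneys, with its standard error, for the 16 genes that passed the test under GDC-0941 (orange circles, leftmost at each gene) and for each of the 5 other compounds. The controls are shared by all 6 comparisons; Rcl1 is at 1.46 under GDC-0941 and at 0.31 to 0.96 under the others, and Khdc4 is near -1 under all 6.

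A contrast that leaves the controls out, GDC-0941 against the mean of the 5 other compounds with each weighted equally, called 0 of 11719 genes (0%) by edgeR, DESeq2 or limma voom. The lowest adjusted p was 0.999, and 249 genes were higher (2.12%) and 190 lower (1.62%) at an unadjusted p below 0.05, 3.75% in all. Rcl1 was higher in GDC-0941 kidneys by 0.72 ± 0.21 and 2310039H08Rik by 0.34 ± 0.11, and Rhobtb1 differed by -0.67 ± 0.26 and Ube3a by -0.41 ± 0.14 (log2 difference ± SE). Sfpq differed by -0.14 ± 0.14, Khdc4 by -0.04 ± 0.19 and Cpsf6 by -0.03 ± 0.15, each close to 0 beside its error. In this contrast the median log2 difference was -0.03 for the splicing regulators and 0.04 for the nuclear noncoding RNAs. It was 0.14 for the cytosolic ribosomal proteins and 0.09 for nuclear genes of oxidative phosphorylation.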

How the data were processed

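RNA of 30 kidney libraries, 4 of GDC-0941, 6 of control and 20 of the other 5 compounds, was measured by CEL-seq. The values are counts of reads per gene as deposited by the authors. Per the submitters' processing notes the tools were bcl2fastq 1.8.4, Trimmomatic 0.32, STAR 2.5.2b and featureCounts 1.5, with the mm10 mouse genome; the strand setting, the annotation release and any molecular identifiers were not given in the sources used here. Every column matched a sample by name (0 unused). GENCODE M21 (GRCm38) matched 42548 of 43629 gene IDs.

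A single quasi-likelihood fit held all 30 kidney libraries, made with edgeR 4.0.16 under R 4.3.3, TMM scaling and the filterByExpr filter. Its adjusted p-values use the Benjamini-Hochberg method over 11719 genes, called at 0.05, and the biological coefficient of variation came to 0.294. CPM (TMM-normalised counts scaled to a common library size) give the levels, and GDC-0941 values are listed in the order of replicates 1 to 4. The standard error of a log2 change is its size divided by the square root of the F statistic. The depth of each library limits genes of few counts. Among the 10 GDC-0941 and control libraries the lowest chi-square per gene between 2 libraries was 4.09, so none of these was a duplicate. The 20 libraries of the other 5 compounds were not checked in this way. The scripts were tested on simulated data.

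The members and lists (31 of pathways, 17 of cell types) were chosen with earlier results of these data known. The rule for named genes took all called genes, the next by p with a mean of at least 5 CPM up to 15 in each direction, the tested members of the PI3K, AKT, mTOR and FoxO lists, and 3 of smallest p in each other list; the text names part of these. DESeq2 1.42.0, limma voom (limma 3.58.1), RLE scaling, no filter, the 2 groups alone, covariates for satellite-like share and total count, a block for the replicate number and leaving out libraries were the alternatives. Recounting list members under each was added after the data were seen. Models were called satellite-like where 5% or more of their words of 24 bases occur in Gm10800.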

Additional observations from a re-analysis of the deposited data

Results flagged for a closer look

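In 182 groups of 4 or 6 libraries checked, 6 held 1 library far from the others of its group, and chance alone gives about 1 in 20. In the GDC-0941 kidneys, Igfbp1 was at 9.58 CPM in replicate 3 (nearest other 5.91), so its group mean leans on that kidney while the other 3 still lie above the controls. Irs2 was at 11.2 CPM in replicate 4 (nearest other 4.47) and Slc12a3 at 99.3 CPM in replicate 4 (nearest other 59.4). Rictor was at 25.4 CPM in replicate 1 (nearest other 12.4), the only GDC-0941 value inside the control range. In the controls, Pck1 was at 2004 CPM in replicate 6 (nearest other 1488) and Cry2 at 3.29 CPM in replicate 1 (nearest other 1.18).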

How the results depend on the processing

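The count of 16 called genes moved with most settings: 185 by DESeq2, 100 by limma voom, 7 with RLE scaling, 70 with no filter, 35 without AZD8055 replicate 4, 1 with the 2 groups alone, and 0 with a covariate for satellite-like counts, with one for the total count, and without the libraries at 5% or more satellite-like counts. Leaving out 1 library at a time gave 0 to 159. The cause was not tested, except that the fit of the 2 groups alone has 10 libraries. With the replicate block it was 0. Same-numbered GDC-0941 and control libraries had correlations of -0.02, -0.19, 0.19 and 0.14, and other pairs ran from -0.35 to 0.41. With so few same-numbered pairs, and none from the other compounds, these values cannot show whether the replicate numbers pair the kidneys. Against the other 5 compounds, the count of 0 became 8 with no filter. Ribosomal protein genes higher at the unadjusted threshold, 19, became 7 without the libraries at 5% or more and 9 with the covariate for total count, and 7 to 29 without 1 library. Oxidative phosphorylation genes, 27, became 43 by limma voom and 11 under each of those settings, and 6 to 44 without 1 library. Nuclear noncoding RNAs, 7 lower, became 4 with the 2 groups alone, and 3 to 11 without 1 library. Each of the 16 called genes lost its call in 12 to 15 of the 19 or 20 settings that gave it an adjusted p, 221 losses in 319 comparisons, while its log2 change stayed between 80.0% and 132% of the value reported and kept its sign. Named genes that were not called gained a call in 123 comparisons. In all, 520 of 552 list medians moved by less than 1 SD. The 4 GDC-0941 libraries limit what small changes could be called.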

Other observations

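Several genes outside the lists above were higher in every GDC-0941 kidney than in every control without passing the adjusted threshold. Akip1, which codes for a protein that binds protein kinase A, was at 21.8, 39.1, 38.3 and 27.9 CPM in the GDC-0941 libraries, against 15.5 to 21.2 CPM (median 19.5) in the controls (log2 change of 0.74 ± 0.19 (SE), adjusted p = 0.101). Rwdd3, an enhancer of SUMO conjugation, was at 16.4, 16.3, 23.6 and 11.9 CPM in the GDC-0941 libraries, against 2.20 to 10.996 CPM (median 7.75) in the controls (log2 change of 1.14 ± 0.31 (SE), adjusted p = 0.111). Selenof, a selenoprotein of the endoplasmic reticulum, was at 143, 137, 143 and 106 CPM in the GDC-0941 libraries, against 67.7 to 100.2 CPM (median 96.8) in the controls (log2 change of 0.52 ± 0.14 (SE), adjusted p = 0.111), and the histone variant gene H2afv was at 121, 134, 122 and 133 CPM in the GDC-0941 libraries, against 58.6 to 119 CPM (median 72.5) in the controls (log2 change of 0.65 ± 0.17 (SE), adjusted p = 0.0977). Over all genes tested, 1.33% had all 4 GDC-0941 libraries above all 6 controls.

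The organic anion transporter genes Slc22a28 and Slc22a30, both higher in male than in female mouse kidney, varied among the controls. Slc22a28 was at 104, 182, 88.8 and 132 CPM in the GDC-0941 libraries, against 177 to 428 CPM (median 275) in the controls (log2 change of -1.17 ± 0.30 (SE), adjusted p = 0.102). Slc22a30 was at 232, 293, 186 and 246 CPM in the GDC-0941 libraries, against 207 to 711 CPM (median 441) in the controls (log2 change of -0.89 ± 0.30 (SE), adjusted p = 0.200), and its GDC-0941 values lay inside the control range except in replicate 3. Tsku, which codes for a secreted leucine-rich repeat protein, was at 83.6, 15.2, 33.8 and 31.2 CPM in the GDC-0941 libraries, against 11.6 to 20.4 CPM (median 14.1) in the controls (log2 change of 1.36 ± 0.36 (SE), adjusted p = 0.111), highest in GDC-0941 replicate 1.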
